A study of Mus musculus with 4 samples.

Results

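The extracellular matrix of the heart ventricle was examined through 40 genes for its glycoproteins, proteoglycans, elastic fibre proteins and crosslinking enzymes. They were chosen by symbol, and all 40 were found among the 36814 rows of the deposited table, each in 1 row. RNA had been sequenced from ventricles of 4 mice at postnatal day 14, with the atria removed. The control group was 2 wild type mice, and the mutant group was 2 mice that carried a conditional Hnrnpu knockout and a Ckmm-Cre transgene. Each group held 1 male and 1 female on a mixed C57BL/6 and 129 S4 background. Cre under the muscle creatine kinase promoter acts in striated muscle cells, so the other cells of the ventricle are not its target. Hnrnpu codes for hnRNP U, a nuclear RNA-binding protein with roles in splicing and chromatin organisation. The labels do not say whether the wild type mice carried the floxed allele or were littermates of the mutants.

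The cardiac matrix is a network of collagen, elastic fibres, proteoglycans and basement membranes that holds muscle cells in place and passes on their force. Most of its interstitial proteins are made by fibroblasts and mural cells rather than by cardiomyocytes. Glycoproteins such as fibronectin and periostin link cells to this network, small leucine-rich proteoglycans bind collagen fibrils and shape their growth, and lysyl oxidases crosslink collagen and elastin. In the mouse the network is rebuilt in the first weeks after birth, and it is known to expand when the heart is under load or injured.

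The deposited table gives 1 RPKM value per group, which is a read number scaled by transcript length and library size, so levels of different genes can be set side by side. Values per animal were not analysed here, and therefore no spread stands beside a level. The fold change, p-value and adjusted p-value of each gene are those of the authors' deposited table. A gene is called higher or lower, and said to have risen or fallen, where that adjusted p is below 0.05. By the worth of 1 read in small RNA genes, the reads of the mutant group were 2.44 times those of the control group. No member was at 0 in either group. With exon lengths of a later annotation, the members' read numbers were put at 26 or more in control and 27 or more in mutant, with medians of 2585 and 9885.

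The level of Hnrnpu was 32.7 RPKM in controls and 15.2 RPKM in mutantss. Its p was 0.0613 and its adjusted p 0.438 in the authors' deposited table, so the targeted gene itself was not called. Cardiomyocyte genes were abundant in both groups, for example Tnnt2, cardiac troponin T, at 1840 RPKM in controls and 1640 RPKM in mutants, as the tissue label says.

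The comparison asked how these matrix genes differed between the ventricles of wild type mice and those of mice made to lose Hnrnpu in muscle. Of the 40 genes 10 rose, 1 fell and 29 were not called. The risers were Cilp, Lox, Spp1, Fmod, Bgn, Eln, Omd, Fbln5, Mgp and Loxl3, which come from the glycoproteins, the crosslinking enzymes, the collagen-binding proteoglycans and the elastic fibres. The single gene that fell was Sned1, whose 3' end overlaps that of another gene that fell. In the authors' deposited table the folds of the 10 risers ran from 3.26 to 21.9, with a median of 6.54.

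These counts are set against all rows of the authors' deposited table, where 859 of 24454 tested rows (3.51%) were called, 497 (2.03%) higher and 362 (1.48%) lower. Among the 11292 rows with a mean of at least 1 RPKM, a level that 34 of the 40 members reached, 5.28% were called. Of the members 27.5% were called. Above control stood 31 members and below it 9, whereas 52.9% of all tested rows were above control. By the deposited values 24 members were at least 2-fold higher in mutant, against 22.7% of all tested rows and 11.4% of those with a mean of at least 1 RPKM. The median log2 fold change of the members was 1.18, and that of all tested rows 0.07. The same list had been seen in earlier results of these data, so these counts describe the members and are not an independent test of their direction.

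**Figure D1:**
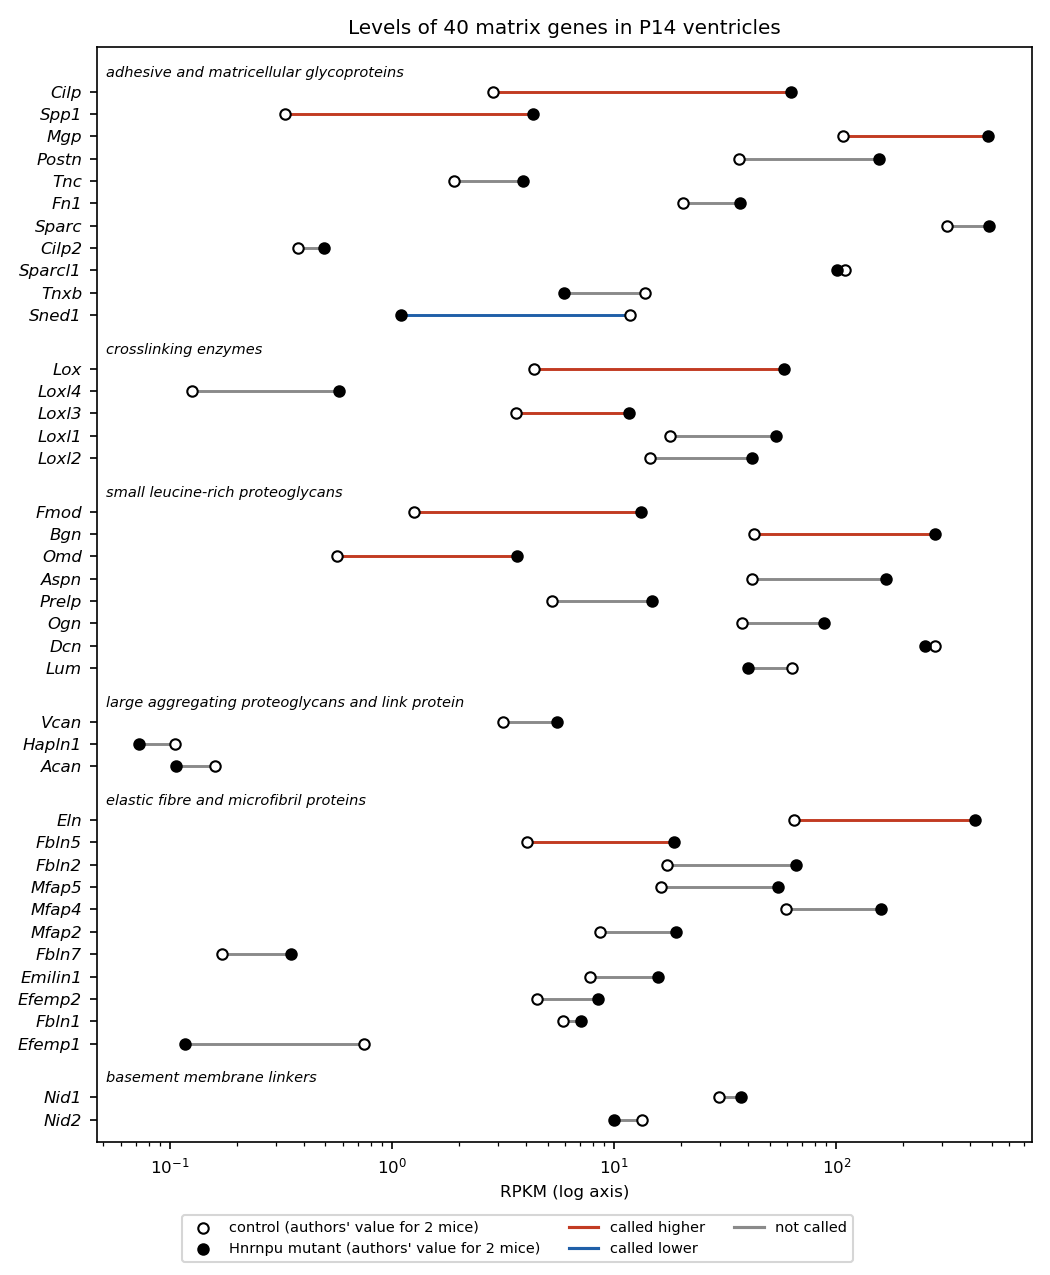
Each row is 1 of the 40 genes, grouped by role, with the authors' RPKM value for the control group (open circle) and the mutant group (filled circle) on a log axis; red lines join values of genes called higher, blue lower and grey not called. The 10 red lines reach from genes near 0.329 RPKM in control (Spp1) to genes near 107 RPKM (Mgp), and the only blue line is Sned1.

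Summed over the members, the level was 1364 RPKM in controls and 3182 RPKM in mutants ventricles. Sparc and Dcn led in control, at 315 and 278 RPKM, followed by Sparcl1 at 109, Mgp at 107 and Eln at 64.1 RPKM. In mutant the order was Sparc at 489 RPKM, Mgp at 480, Eln at 420, Bgn at 279 and Dcn at 250 RPKM. Of these leading genes Mgp, Eln and Bgn were called, while Sparc, Dcn and Sparcl1 were not. The top 5 genes held 64.0% of the members' summed RPKM in controls and 60.3% in mutant. The neighbours in these orders cannot be tested against each other, since the levels carry no spread.

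Among the adhesive and matricellular glycoproteins, 3 of 11 rose and 1 fell. Cilp, cartilage intermediate layer protein, a secreted glycoprotein also made by cardiac fibroblasts (chromosome 9, plus strand, 65112987 to 65128413, mm9), was at 2.84 RPKM in controls and 62.3 RPKM in mutants. Its log2 fold change of 4.46 was the highest of the 40 in the authors' deposited table, with adjusted p = 1.41e-09. The paralog Cilp2 was at 0.377 and 0.492 RPKM and was not called. Spp1, which codes for osteopontin, an integrin ligand made by activated macrophages and fibroblasts (chromosome 5, plus strand, 104864137 to 104870069), was at 0.329 RPKM in controls and 4.28 RPKM in mutants. For Spp1 the authors' deposited table gives a 13.0-fold rise with adjusted p = 4.41e-06. Mgp, matrix Gla protein, an inhibitor of calcification (chromosome 6, minus strand, 136820957 to 136824326), was at 107 RPKM in controls and 480 RPKM in mutants. This was a 4.48-fold rise in the authors' deposited table, with adjusted p = 0.0203. Mgp was the most abundant of the 10 risers in both groups.

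The other glycoproteins above control did not pass. Postn, periostin, a matricellular protein of activated fibroblasts, was at 36.5 RPKM in controls and 155 RPKM in mutants. That 4.24-fold difference came with p = 0.0189 and adjusted p = 0.231 in the authors' deposited table, although Fbln5 and Mgp were called at much the same fold. Fn1, fibronectin, was at 20.4 and 36.9 RPKM, and Tnc, tenascin C, a glycoprotein of healing tissue, at 1.90 and 3.88 RPKM. Sparc, a collagen-binding protein also called osteonectin, was at 315 and 489 RPKM, and its relative Sparcl1 at 109 and 101 RPKM. Tnxb, tenascin X, which stabilises collagen networks, was below control, at 13.7 RPKM in controls and 5.96 RPKM in mutants (p = 0.0372, adjusted p = 0.342 in the authors' deposited table). Tenascin C and tenascin X thus stood on opposite sides of control, neither with a call, and the difference between them was not tested.

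Sned1, a secreted glycoprotein with nidogen-type, fibronectin type III and EGF-like domains (chromosome 1, plus strand, 95132418 to 95197642), fell from 11.8 to 1.09 RPKM. This is a 10.8-fold lower level, with a log2 fold change of -3.44 and adjusted p = 4.62e-07 in the authors' deposited table. The last 1855 bases of its row are shared with Mterfd2 on the other strand, a gene that acts in mitochondria, which was at 9.12 RPKM in controls and 1.46 RPKM in mutants. Mterfd2 was called too, with a log2 fold change of -2.64 and adjusted p = 9.85e-05 in the authors' deposited table. Since the use of strand is not given in the sources used here, reads from the shared end cannot be assigned to 1 of them, and their part in the result was not tested. Without the 13 members that overlap another row above 0, no fall was left among the members and 8 rises remained.

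All 5 crosslinking enzymes stood above control, and 2 of them rose. Lox, the founding lysyl oxidase, which oxidises lysines of collagen and elastin (chromosome 18, minus strand, 52675723 to 52689521), was at 4.36 RPKM in controls and 58.3 RPKM in mutants. This 13.4-fold rise had adjusted p = 6.74e-07 in the authors' deposited table. Loxl3 (chromosome 6, plus strand, 82984167 to 83002556) was at 3.59 RPKM in controls and 11.7 RPKM in mutants, a 3.26-fold rise with adjusted p = 0.0298 in the authors' deposited table. It shares 1297 bases with Htra2 on the other strand, which was at 5.43 and 9.0 RPKM and was not called. Loxl1, which acts on elastin, was at 17.8 and 53.7 RPKM, and Loxl2, which acts on basement membrane collagen, at 14.4 and 41.8 RPKM. Loxl4 was the lowest of the family, at 0.125 RPKM in controls and 0.578 RPKM in mutants. Loxl1, Loxl2 and Loxl4 had unadjusted p-values of 0.00542, 0.00904 and 0.00302 and adjusted p-values of 0.107, 0.149 and 0.0718 in the authors' deposited table. In control the order of levels was Loxl1, Loxl2, Lox, Loxl3 and Loxl4, whereas in mutant Lox stood first.

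The 8 small leucine-rich proteoglycans gave 3 rises, 3 further genes above control without a call, and 2 below it. Fmod, fibromodulin, which guides collagen fibril assembly and binds lysyl oxidase (chromosome 1, plus strand, 135933831 to 135944854), was at 1.25 RPKM in controls and 13.2 RPKM in mutants. The rise was 10.5-fold with adjusted p = 7.27e-08 in the authors' deposited table. Bgn, biglycan, which binds collagen and TGF-beta (chromosome X, plus strand, 70728941 to 70741272), was at 42.6 RPKM in controls and 279 RPKM in mutants, a 6.53-fold rise with adjusted p = 0.0359 in the authors' deposited table. Omd, osteomodulin (chromosome 13, plus strand, 49678135 to 49687978), was at 0.562 RPKM in controls and 3.65 RPKM in mutants. It had nearly the same fold, 6.50, but adjusted p = 0.00225 in the authors' deposited table. Aspn, asporin, a TGF-beta binding relative of biglycan, was at 41.6 and 167 RPKM with adjusted p = 0.0601, and Prelp, which anchors basement membrane to collagen, at 5.25 and 14.8 RPKM with adjusted p = 0.0790, both in the authors' deposited table. Ogn, osteoglycin, also called mimecan, was at 37.6 and 88.2 RPKM without a call. Dcn, decorin, a close relative of biglycan, was at 278 RPKM in controls and 250 RPKM in mutants. Lum, lumican, a relative of fibromodulin, was at 62.9 and 39.9 RPKM.

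In control ventricles decorin was thus listed 235 RPKM above biglycan, and in mutant ventricles biglycan was 29.0 RPKM above decorin. Biglycan was called, whereas the approximate 95% interval of the log2 fold change of Dcn, derived from its p in the authors' deposited table, ran from -1.60 to 1.30. This interval includes a 2-fold difference in either direction. Whether the folds of Bgn and Dcn differ was not tested, because no error across animals is at hand for the pair.

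Of these 8 proteoglycan genes all but Bgn lie in clusters of the genome, and the members of each such cluster had fold changes of like sign. On chromosome 13, Aspn (49639812 to 49662926), Omd and Ogn (49703440 to 49719869) follow each other on the plus strand and were all above control, with log2 fold changes of 2.0, 2.70 and 1.23 in the authors' deposited table. The 5' neighbour Ecm2, a related leucine-rich protein, was at 6.43 and 7.78 RPKM. All 4 genes of this stretch of 120 kb, Ecm2 included, lie within Cenpp on the other strand, a centromere gene at 1.29 and 1.38 RPKM. On chromosome 10, Dcn (96942245 to 96980777) and Lum (97028135 to 97035337) were both below control without a call. The next genes there, Kera and Epyc, which code for keratocan and epiphycan, were at 0.0867 and 0.283 RPKM in controls and 0.0112 and 0.104 RPKM in mutants, without a call. On chromosome 1, Prelp (minus strand, 135806881 to 135817991) and Fmod were both above control, and their neighbour Optc, opticin, was near the floor at 0.0366 and 0.0212 RPKM. Outside this family, Hapln1 and Vcan, neighbours on chromosome 13 within 202 kb, stood on opposite sides of control without a call. With 2 or 3 members per cluster this is a description, and no test of neighbours was made.

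**Figure D2:**
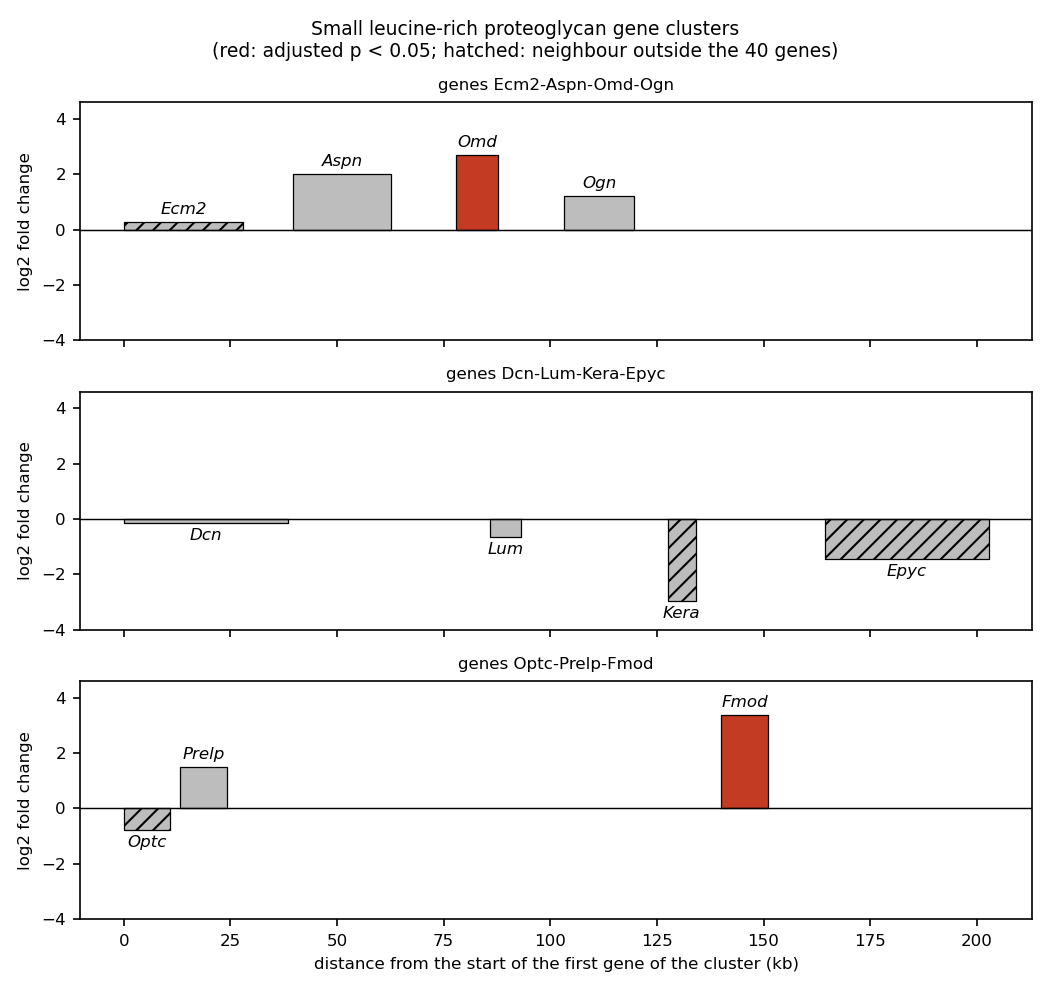
Each panel is 1 gene cluster, with gene position on the horizontal axis as distance in kb from the start of its first gene and the deposited log2 fold change as height. Aspn, Omd and Ogn stand between 1.23 and 2.70 in the top panel, Dcn and Lum lie at -0.15 and -0.66 in the middle one, and Prelp and Fmod stand at 1.49 and 3.39 in the bottom one; hatched bars are neighbours outside the 40 genes.

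The large aggregating proteoglycans and their link protein gave no call. Vcan, versican, which binds hyaluronan in the loose matrix of the developing heart, was at 3.16 RPKM in controls and 5.51 RPKM in mutants. Acan, aggrecan, the proteoglycan of cartilage and valves, was at 0.159 and 0.106 RPKM, and Hapln1, the link protein that ties both to hyaluronan, at 0.105 and 0.0725 RPKM. Vcan had p = 0.121 in the authors' deposited table, and Acan and Hapln1 had p = 0.469 and 0.567. Acan and Hapln1 were among the 4 lowest members in both groups.

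Of the 11 genes of elastic fibres and microfibrils 2 rose and none fell, and 10 stood above control. Eln, elastin, the core of the elastic fibre (chromosome 5, minus strand, 135179651 to 135223111), was at 64.1 RPKM in controls and 420 RPKM in mutants. That is a 6.55-fold rise with adjusted p = 0.0456, just inside the threshold, in the authors' deposited table. Fbln5, fibulin 5, which carries elastin to microfibrils and binds Loxl1 (chromosome 12, minus strand, 102984775 to 103057265), was at 4.06 RPKM in controls and 18.6 RPKM in mutants. For Fbln5 the authors' deposited table gives 4.57-fold and adjusted p = 0.00316. Mfap5, a microfibril glycoprotein, was at 16.2 and 54.4 RPKM with adjusted p = 0.0659, and Fbln2, fibulin 2, at 17.2 and 65.6 RPKM with adjusted p = 0.0766, both just outside the threshold in the authors' deposited table. Mfap4, which binds elastin and collagen, was at 59.5 and 158 RPKM, and Mfap2, a microfibril glycoprotein, at 8.62 and 18.9 RPKM. Emilin1, found at the rim of elastic fibres, was at 7.74 and 15.7 RPKM, Efemp2, fibulin 4, which helps lysyl oxidase reach elastin, at 4.47 and 8.42 RPKM, Fbln1 at 5.85 and 7.09 RPKM and Fbln7 at 0.171 and 0.350 RPKM.

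Efemp1, fibulin 3, was the exception among the fibulins. It was at 0.743 RPKM in controls and 0.117 RPKM in mutants, with a log2 fold change of -2.66, p = 0.00241 and adjusted p = 0.0615 in the authors' deposited table, and did not pass. Its estimated reads were from 75 to 88 in control and from 27 to 36 in mutant, although the mutant libraries were deeper.

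The basement membrane linkers Nid1 and Nid2, nidogens that join laminin to type IV collagen, were not called. Nid1 was at 29.6 RPKM in controls and 37.1 RPKM in mutants, and Nid2 at 13.3 and 9.96 RPKM. Their log2 fold changes of 0.33 and -0.42 in the authors' deposited table had p-values of 0.607 and 0.439. The approximate 95% interval ran from -0.92 to 1.57 for Nid1 and from -1.48 to 0.64 for Nid2.

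**Figure D3:**
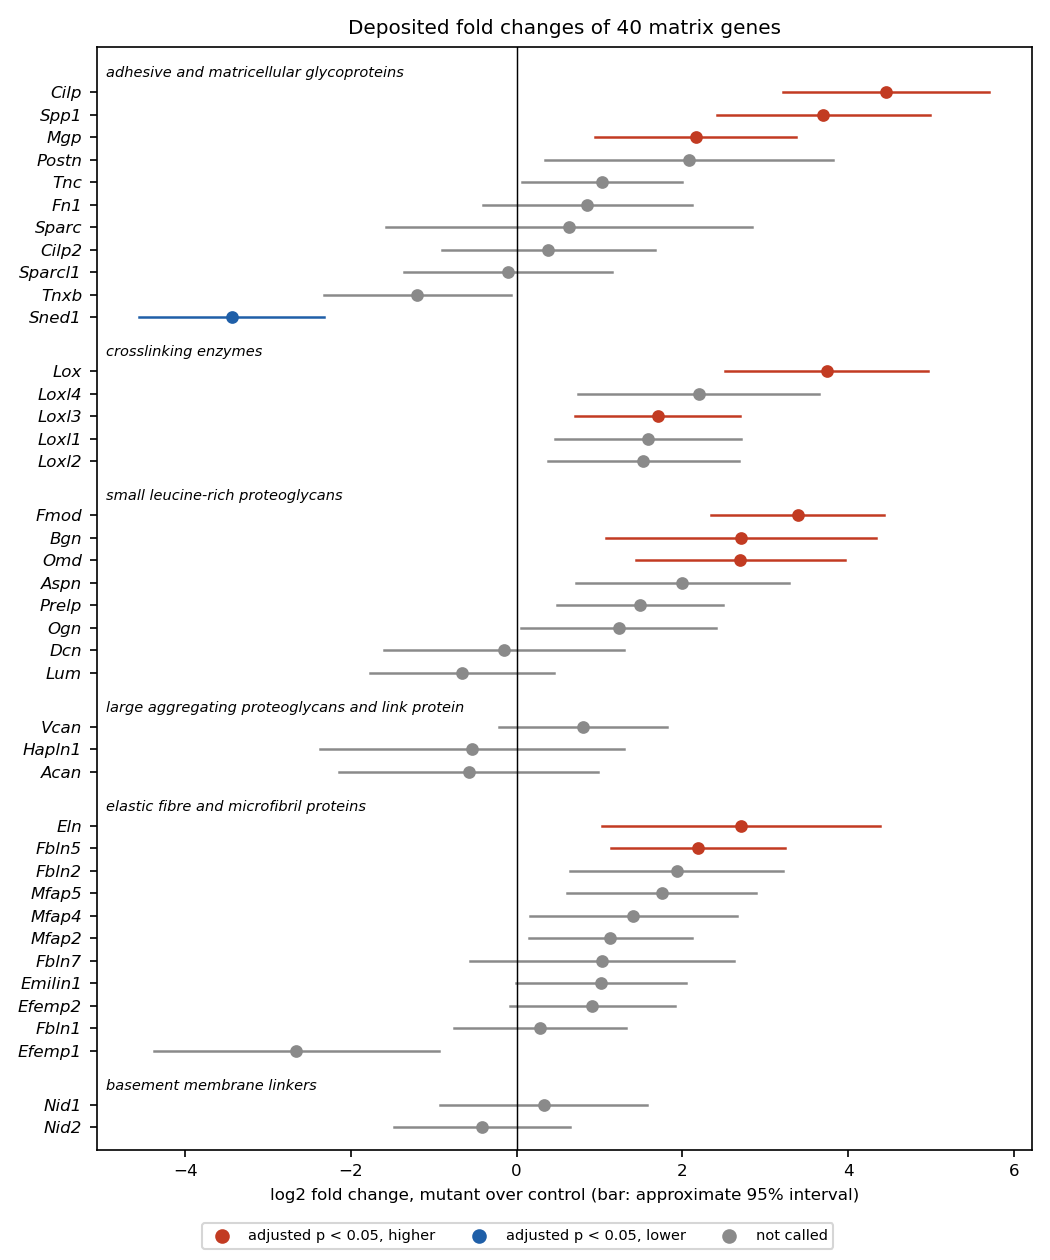
The deposited log2 fold change of mutant over control (points) for the 40 genes by role, with bars for the approximate 95% interval derived from the deposited p-value. All 5 crosslinking enzymes lie to the right of 0, from 1.53 (Loxl2) to 3.74 (Lox), while the 2 nidogens lie on either side of it.

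By the authors' deposited table, 14 of the 29 members without a call had a p under 0.05 before adjustment, 12 of them above control and 2, Tnxb and Efemp1, below it. With called members included, 22 of the 40 had such a p above control and 3 below it. Over all tested rows, called ones included, the shares were 6.4% and 6.2%. The other 15 members without a call stood above control in 9 cases and below it in 6. Dividing each log2 fold change by the normal score of its deposited p gives an approximate error, which was 0.63 in the median over the 40 genes and ran from 0.49 (Tnc) to 1.13 (Sparc). For the 11 members with a mean of at least 50 RPKM the median error was 0.66, and for the others 0.58. The more abundant members thus did not have the smaller errors. The upper bound of the interval reached a 2-fold rise for 24 of the 29, so a missing call does not show that a level was unchanged.

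The promoters of the members were searched for short motifs because so many stood above control together. RefSeq promoter windows (build GRCm38.p6), from 250 bases before to 50 bases after the start, matched 27 of the 40 members, with 35 windows in all. The windows of 4 called genes are shown as examples, 3 that rose and the 1 that fell, each chosen as having at least 1 match. Only 7 of the called members had a window, and those of the risers Cilp and Omd held no match to any motif searched. Capitals mark the matches on either strand to CAGAC (the SMAD box of TGF-beta signalling), TATAAA (the TATA box) and GGGCGG (the GC box), and each is written 5′ to 3′ on the strand of its gene. The positions below are in GRCm38.p6 and not in mm9. The Fmod window is chr1:134037004-134037303 on the plus strand, that of Spp1 chr5:104434861-104435160 on the plus strand, that of Bgn chrX:73483351-73483650 on the plus strand and that of Sned1 chr1:93235647-93235946 on the plus strand.
Fmod: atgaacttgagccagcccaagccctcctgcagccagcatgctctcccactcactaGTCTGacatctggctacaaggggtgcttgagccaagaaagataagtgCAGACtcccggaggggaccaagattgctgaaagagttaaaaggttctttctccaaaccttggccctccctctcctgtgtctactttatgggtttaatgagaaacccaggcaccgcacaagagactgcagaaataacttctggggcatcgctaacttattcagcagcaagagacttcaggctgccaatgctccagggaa
Spp1: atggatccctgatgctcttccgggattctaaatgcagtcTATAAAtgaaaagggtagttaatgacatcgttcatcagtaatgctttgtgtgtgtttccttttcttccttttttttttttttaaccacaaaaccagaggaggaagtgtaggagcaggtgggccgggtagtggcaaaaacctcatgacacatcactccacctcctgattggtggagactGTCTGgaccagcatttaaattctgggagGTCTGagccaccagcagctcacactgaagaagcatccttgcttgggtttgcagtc
Bgn: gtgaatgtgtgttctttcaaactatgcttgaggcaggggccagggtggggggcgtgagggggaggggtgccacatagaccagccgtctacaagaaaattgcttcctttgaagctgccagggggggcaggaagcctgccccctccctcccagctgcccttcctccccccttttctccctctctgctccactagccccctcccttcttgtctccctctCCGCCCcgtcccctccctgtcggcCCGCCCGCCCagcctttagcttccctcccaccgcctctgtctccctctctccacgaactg
Sned1: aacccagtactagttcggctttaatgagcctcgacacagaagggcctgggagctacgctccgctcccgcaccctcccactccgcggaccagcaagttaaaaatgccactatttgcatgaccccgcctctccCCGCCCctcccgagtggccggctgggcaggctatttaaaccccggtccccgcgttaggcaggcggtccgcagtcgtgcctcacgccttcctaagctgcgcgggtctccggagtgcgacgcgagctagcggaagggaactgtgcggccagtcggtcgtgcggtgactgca

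The Fmod window holds the SMAD box letters 195 and 148 bases upstream of the start, and that of Spp1 holds them 33 and 5 bases upstream. The Bgn window holds 3 GC boxes within 34 bases upstream of the start, of which a pair overlap, and that of Sned1 holds 1 GC box 119 bases upstream. Over the 35 member windows, CAGAC was present in 57.1%, against 49.6% of all 32851 windows of the same length. GGGCGG was in 48.6% of member windows and 35.7% of all windows, and TATAAA in 17.1% and 13.6%. The TEAD letters GGAATG were in 14.3% and 14.7%, and the AP-1 letters TGANTCA in 5.71% and 7.81%. The composite element of ATF4 and C/EBP, TGATGNAAT, was in 1 member window, that of Fbln5, and in 0.965% of all windows. The serum response element was in no member window and in 1.63% of all windows. In the 8 windows of genes that rose, CAGAC was present in 5, GGGCGG in 2, TATAAA in 1 and TGATGNAAT in 1. GGAATG and TGANTCA were in none of these 8. All of these are matches of letters in a window, and several member genes have more than 1 window.

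Other matrix genes were read beside the members in 8 lists of 124 measured genes. Of these 26 rose and none fell in the authors' deposited table, which is 21.0% called, and 50 had an unadjusted p under 0.05 above control and 3 below it. The matricellular list gave 6 rises of 13, with Wisp2 and Ctgf, members of the CCN family, from 0.499 to 20.9 and from 15.5 to 269 RPKM, and Thbs4, thrombospondin 4, from 1.66 to 59.5 RPKM. Of 22 collagen chains 5 rose. Among them were the network collagen Col8a1, from 3.57 to 59.5 RPKM, and the fibril-associated Col12a1, from 0.270 to 5.49 RPKM. The fibrillar chain Col11a1 rose too, from 0.151 to 1.03 RPKM, whereas the main fibrillar chain Col1a1 was at 110 and 218 RPKM without a call. Of 15 genes of collagen processing 2 rose, Leprel1, a prolyl 3-hydroxylase, from 0.704 to 4.37 RPKM and Adamts2, a procollagen protease, from 5.56 to 19.6 RPKM.

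Of 18 genes of TGF-beta signalling and microfibrils 5 rose, including Ltbp2 from 0.820 to 13.5 RPKM and the ligand Tgfb2 from 2.18 to 10.9 RPKM. Among 16 matrix proteases and inhibitors 4 rose, with Mmp3, stromelysin, from 0.0827 to 0.911 RPKM and the inhibitors Timp1 and Timp4 from 2.71 to 11.1 and from 2.13 to 8.04 RPKM. The list of 18 matrix receptors gave 4 rises, led by the collagen integrin Itga11 from 0.224 to 1.62 RPKM, Itgb5 from 6.33 to 31.2 RPKM and the collagen receptor Ddr1 from 3.68 to 14.8 RPKM. None of 8 further basement membrane genes and none of 14 genes of glycosaminoglycan synthesis was called in the authors' deposited table, with 0 and 2 of them above control at an unadjusted p under 0.05 and 1 below it in each list. Their median log2 fold changes were -0.17 and 0.07, against 0.79 for the collagen chains and 1.30 for the matricellular list. Type IV collagen, the collagen of basement membranes, was counted with the collagen chains. There its chain Col4a3 rose from 0.660 to 2.28 RPKM. Its abundant chains Col4a1 and Col4a2 were at 118 and 87.4 RPKM in controls and 197 and 155 RPKM in mutants, without a call. Col4a4 and Col4a5 were not called either.

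**Figure D4:**
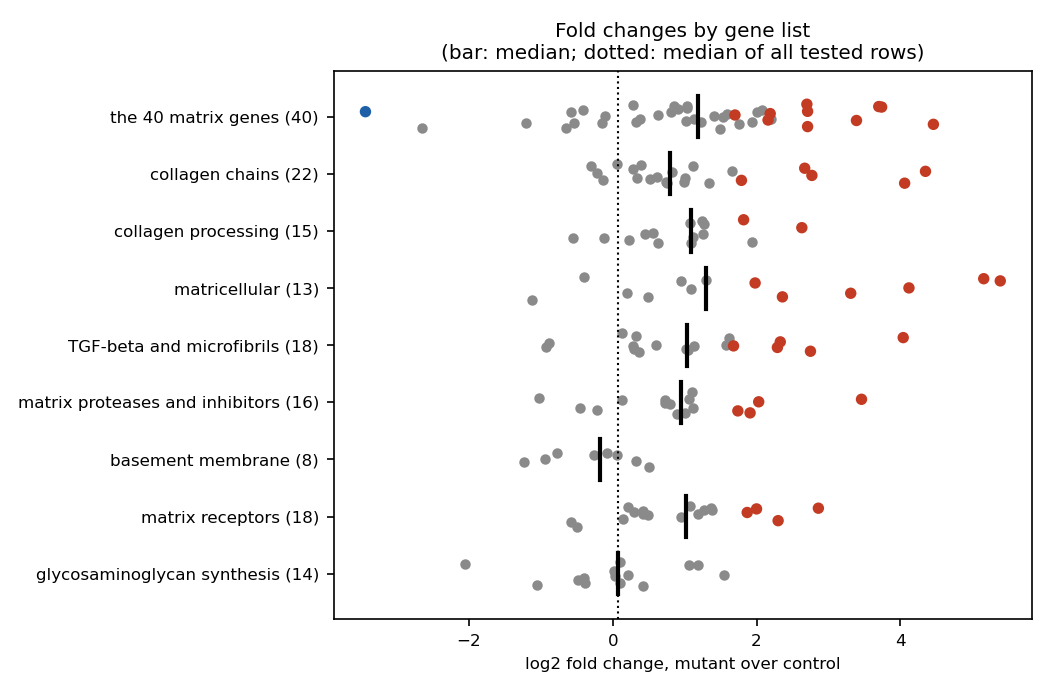
Deposited log2 fold changes (horizontal axis) of the 40 genes and of 8 other matrix lists, with 1 point per gene, red where called higher, blue where called lower and grey where not called; the number of genes stands in brackets, black bars are list medians and the dotted line is the median of all tested rows at 0.07. The basement membrane and glycosaminoglycan lists hold no coloured point, and the matricellular list has the highest median at 1.30.

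Markers of the cell types that make or surround the matrix were read in the same table, since in bulk tissue fewer cells of a type and less RNA per cell cannot be told apart. Of 10 fibroblast markers 2 rose, Dpep1 from 3.45 to 37.1 RPKM and Cthrc1, a marker of activated fibroblasts, from 3.08 to 24.5 RPKM. The defining receptors Pdgfra and Ddr2 were at 5.32 and 3.97 RPKM in controls and 11.6 and 2.82 RPKM in mutants, Tcf21 at 8.47 and 24.0 RPKM, and Dpt, dermatopontin, at 72.9 and 49.5 RPKM, all without a call. The summed level of the 10 markers was 176 RPKM in controls and 270.3 RPKM in mutants, with 7 above control. Ddr2 is also in the receptor list. Of 11 mural markers Tagln rose from 9.76 to 42.6 RPKM, 6 were above control, and their sum was 310.8 and 956.1 RPKM, of which Acta2 made 158 and 802 RPKM without a call. Without Acta2 the mural sum was 153 and 154 RPKM. Of 13 macrophage markers Lgals3 and Lyz2 rose, from 0.420 to 3.85 RPKM and from 18.4 to 90.5 RPKM, 12 were above control, and the sum was 79 and 228 RPKM.

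Of 10 endothelial markers 4 were above control and Vwf rose, from 1.54 to 7.79 RPKM, with sums of 185 and 196 RPKM. Without Eng the endothelial sums were 145.2 and 134.7 RPKM, and the median log2 fold change of all 10 was -0.29. Of 10 cardiomyocyte markers 1 was above control and none was called, with sums of 9120 and 9374 RPKM and 1 marker, Ryr2, at an unadjusted p under 0.05. The 1 above control was Actc1, cardiac actin, at 2380 and 4530 RPKM. Without it the sums of the other 9 were 6740 and 4844 RPKM, and the median log2 fold change of all 10 was -0.57. Of 9 markers of cartilage, tendon and valve Comp rose, from 0.652 to 2.57 RPKM, and 6 were above control, with sums of 9.21 and 15.6 RPKM. Comp is also in the matricellular list. Of 6 epicardial markers Krt19 rose, from 0.212 to 1.34 RPKM, 5 were above control, and the sums were 3.86 and 5.03 RPKM. Without Krt19 the epicardial sums were 3.648 and 3.685 RPKM. The epicardial marker below control was Wt1, at 1.64 and 0.998 RPKM without a call. The Schwann cell and adipocyte lists gave no call among 4 and 3 genes, with sums of 2.64 and 3.18 RPKM and of 0.0324 and 0.0147 RPKM. No marker was at 0 except the adipocyte gene Plin1, listed at 0 in control. The fibroblast and macrophage sums were thus higher in mutant, also without the marker that differed most in each (172.5 and 233 RPKM without Dpep1, 60.6 and 137.5 RPKM without Lyz2). Most matrix genes stood above control too, the greater part of them without a call. The part of these cell types in the members' differences was not tested.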

How the data were processed

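RNA was taken from ventricles of 4 mice and sequenced after a standard Illumina library preparation, per the labels' protocols. Per the submitters' processing notes, Bowtie 0.12.9, DESeq and build mm9 were used; which step used which tool, DESeq's version, the read counter, the annotation and the strand setting are all not given in the sources used here. For each gene the authors deposited 1 RPKM value per group. They also deposited the ratio (fold), with mutant divided by control, and the log2 of that fold. A p-value, raw and adjusted, completes what the authors deposited. Of 36814 rows, 12360 were at 0 in both groups and carried no test. Dividing the 2 RPKM values gave the deposited fold to within 0.971% in the 10320 rows in which each group reached 1 RPKM. A Benjamini-Hochberg adjustment over the 24454 tested rows matched the deposited one to within 0.593%.

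The groups were compared by the deposited test, because no value per animal was at hand and no model could be fitted. The approximate error is the deposited log2 fold change divided by the normal score of the deposited p-value, and 95% intervals follow from it. The arithmetic of these errors and of the adjustment was checked on simulated data. There the p-values were made from the same normal score, so whether the errors suit the deposited test was not tested. Relative depth was read from 78 small RNA genes in control and 121 in mutant that were seen in 1 group alone. Their low values, 74 and 121 of them, all lay within 2% of sums of 2 step sizes, which were themselves taken from these values. Read numbers of members divide RPKM times the exon length of GENCODE by these steps. They are estimates and cover counting error only.

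Every member could be named. Members that were called, the next 5 by p and those whose mean reached 50 RPKM were to be given in both groups, and of each other list at most the 3 called genes of largest change. The values of 1 such gene are not reported here. Genes named beyond that were chosen after their values were seen. Among them were Col1a1, the type IV collagen chains, Tnnt2, the neighbours and overlap partners of members, and markers without a call. Members and lists were chosen with earlier results of these data known. The protein features that had been planned were not analysed here. Python 3.11.15, pandas 2.3.3, numpy 2.4.6 and scipy 1.17.1 were used.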

Additional observations from a re-analysis of the deposited data

How the results depend on the processing

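The counts and the median of the members kept their direction under every alternative tried. With a threshold of 0.01 on the adjusted p, 6 members rose, and with 0.1, 2 members fell, the second being Efemp1. With no test and a fold of at least 2 instead, 22 members were higher and 3 lower on log2(RPKM + 0.1), and 20 higher and 2 lower on log2(RPKM + 1). Without members that overlap another row, an alternative chosen after seeing the data, 8 rose and 0 fell. Over the other matrix genes, 1 fell at a threshold of 0.1, and a fold of at least 2 gave 52 higher and 4 lower on log2(RPKM + 0.1) and 1 lower on log2(RPKM + 1). With the Benjamini-Hochberg adjustment made over rows whose mean reached 1 RPKM only, 12 members rose. The added ones were Aspn and Mfap5. The median log2 fold change of the members was 0.99 on log2(RPKM + 1), 1.45 for members whose mean reached 1 RPKM and 1.10 after centring on the median of such rows, 0.08. None of the members' log2 fold changes changed sign under the 2 pseudocounts or the centring, but 7 moved by more than their approximate error, all on log2(RPKM + 1). There Spp1 stood at 1.99, Fmod at 2.66, Omd at 1.57, Sned1 at -2.62, Loxl4 at 0.49, Fbln7 at 0.20 and Efemp1 at -0.64, since a pseudocount shrinks the change of low genes. Leaving out the marker that differed most in each list was also chosen after seeing the data.

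No paired analysis was possible because the deposited table holds 1 value per group and none per sample, and leaving out replicates was not run for the same lack of values. Depth limits the lowest members, Loxl4, Hapln1, Fbln7 and Spp1 in control, most.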
